A study of Mus musculus with 20 samples.

Results

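The B cell receptor signalling genes examined here are Cd79a, Cd79b, Blnk, Lyn, Syk, Btk, Plcg2, Prkcb and Klhl6, together with their splice junctions in mouse bone marrow. The 9 genes were chosen by name and matched to 9 of the 37620 Ensembl gene identifiers in the count table. Their junctions were 678 of 554616 in the junction table, from which 143 of 85590 possible cassette exon and alternative splice site events could be built before any minimum on reads. Exons of Prkcb, Klhl6 and Btk were part of the choice and had been picked on their inclusion in these same mice, so their values are given as a description with no test.

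RNA-seq of bulk bone marrow was performed on 20 mice that had received marrow with doxycycline-inducible transgenes, and the study asked how the splicing modulator sudemycin D6 acts on cells with and without the mutant splicing factor U2AF1(S34F). All 4 groups of 5 mice had donor marrow carrying an rtTA activator with either a U2AF1(WT) or a U2AF1(S34F) transgene, had more than 6 weeks for engraftment, and received doxycycline chow at 625 ppm for 7 days. Over the last 5 of these days the mice of each genotype were infused through a jugular catheter with sudemycin D6 or with its vehicle. The 4 groups are named by transgene and infusion as WT-vehicle, WT-sudemycin, S34F-vehicle and S34F-sudemycin. Donor marrow was pooled from several animals per genotype in the study's methods, donors and irradiated wild-type recipients were young adults, and the transgenes act in addition to the endogenous U2af1 gene. Mouse numbers are those of the labels, and a number shared by 2 groups does not mark the same animal.

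The B cell receptor is an immunoglobulin bound to the signalling chains CD79A and CD79B. On antigen binding, the Src family kinase LYN phosphorylates these chains and recruits the kinase SYK, which phosphorylates the adaptor BLNK. BLNK brings BTK and phospholipase C gamma 2 (Plcg2) together, and the diacylglycerol and calcium that follow activate protein kinase C beta (Prkcb) and NF-κB. KLHL6 is a BTB-kelch adaptor of CUL3 ubiquitin ligases that B cells need for germinal centre responses. Cd79a, Cd79b and Blnk are largely B lineage genes, whereas Lyn, Syk, Btk, Plcg2 and Prkcb also act in myeloid cells, which make up most of the marrow. Sudemycins bind SF3B1, the U2 snRNP protein that helps to recognise the branch point, and U2AF1 binds the AG at the end of the intron. The S34F substitution is known to change the preference of U2AF1 for the base just before that AG.

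The Prkcb, Klhl6 and Btk exons are shown with their 3′ splice sites, because these are what U2AF1 reads. Each window holds the last 20 intron bases and the first 3 exon bases on the gene's strand in the mm9 (NCBI build 37) assembly, with the last 3 intron bases in capitals. The exon is paired with the 3′ splice site of the next exon, to which the upstream exon is joined when the exon is left out.
Prkcb βII exon, chr7:129771150-129771172, plus strand: cttttctccccctttcaTAGtgt
Prkcb βI exon, the next one, chr7:129777239-129777261, plus strand: gttcgctttccatttggCAGaga
Klhl6, the second exon, chr16:19966191-19966213, minus strand: atcacaggtctctcttcTAGggc
Klhl6, the next exon, chr16:19957445-19957467, minus strand: ctttcttcccttttgttAAGttt
Btk, the third exon, chrX:131107844-131107866, minus strand: ttcctcattctttccttCAGaga
Btk, the next exon, chrX:131103510-131103532, minus strand: acttccttttttcattaCAGagg
The base before the AG was T in the Prkcb βII and Klhl6 exons and C in the third Btk exon. The choice gave no coordinates for any exon: Prkcb was read as the βII exon and Klhl6 as its second exon. Which Btk exon was meant was unclear, so all 4 with skipping reads were left untested. Of the other 3, that of 65 bases had a T and those of 68 and 171 bases a C. Over the 14027 3′ splice sites of cassette exons tested under vehicle treatment, this base was C in 56.4%, T in 36.1%, A in 6.89% and G in 0.577%.

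The coding stretches that are gained or lost follow, as they define the isoforms whose shares are given below. The Prkcb βII exon ends one of the annotated protein forms: after 156 coding bases it reaches the stop codon taa, while the βI form joins the upstream exon directly to the next exon. The Klhl6 exon has 166 bases, which is not a multiple of 3, and the Btk exon has 99 bases, which is.
Prkcb βII coding part, chr7:129771170-129771325, plus strand: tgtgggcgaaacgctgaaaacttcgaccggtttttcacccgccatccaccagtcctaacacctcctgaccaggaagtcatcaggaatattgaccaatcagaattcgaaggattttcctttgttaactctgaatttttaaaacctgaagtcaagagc
Klhl6, the second exon, chr16:19966028-19966193, minus strand: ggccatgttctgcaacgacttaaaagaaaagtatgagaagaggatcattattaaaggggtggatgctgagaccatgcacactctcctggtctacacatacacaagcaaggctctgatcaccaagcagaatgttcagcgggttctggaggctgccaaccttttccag
Btk, the third exon, chrX:131107748-131107846, minus strand: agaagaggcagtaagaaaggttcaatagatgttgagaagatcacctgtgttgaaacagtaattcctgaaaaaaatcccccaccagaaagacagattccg

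The gene table held between 41145892 and 62138138 counts per mouse, with a median of 51836276. U2af1, the gene of the factor itself, was at 36.1 ± 1.38 counts per 1000000 counts of the library (CPM) in WT-vehicle, 42.7 ± 3.88 in WT-sudemycin, 51.0 ± 3.32 in S34F-vehicle and 54.7 ± 2.79 in S34F-sudemycin mice (SD, n = 5 each). All 10 U2AF1(WT) mice had 39145 to 78640 counts of Xist and 0 to 4 counts over 4 Y-linked genes, whereas the 10 U2AF1(S34F) mice had 1 to 8 counts of Xist and 10270 to 15034 over the Y-linked genes. The transgene and this sex-linked pattern cannot be told apart in any comparison of the genotypes. Neutrophil markers were the most abundant of the marker lists, with a summed level of 62246 to 108522 CPM in the U2AF1(WT) mice and 76022 to 144144 CPM in the U2AF1(S34F) mice over 12 genes. P-values measure the spread between these mice.

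The 9 genes spanned a wide range of levels. Per exonic length, in WT-vehicle mice, the order ran from Plcg2 at 101.2 ± 3.78 RPKM, the CPM per kilobase of exon, and Lyn at 101.0 ± 3.52 RPKM to Syk at 77.7 ± 9.14, Klhl6 at 59.7 ± 5.24, Prkcb at 53.8 ± 3.74 and Btk at 32.8 ± 0.79. Cd79b at 17.4 ± 5.02 RPKM, Cd79a at 11.9 ± 5.32 RPKM and Blnk at 1.78 ± 0.57 RPKM closed the order (SD, n = 5). The ranges of neighbouring genes overlapped for Plcg2 and Lyn, for Syk and Klhl6, for Klhl6 and Prkcb, and for Cd79b and Cd79a. Over all 20 mice the raw counts behind these levels were 97 to 767 for Blnk, 106 to 1331 for Cd79a and 436 to 2777 for Cd79b, and at least 4233 for each of the other 6 genes. In S34F-sudemycin mice Klhl6 at 72.1 ± 12.3 RPKM stood above Syk at 57.5 ± 4.15 RPKM, with overlapping ranges, while Cd79b at 9.68 ± 1.47, Cd79a at 3.81 ± 0.507 and Blnk at 0.698 ± 0.084 RPKM no longer overlapped each other.

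**Figure D1:**
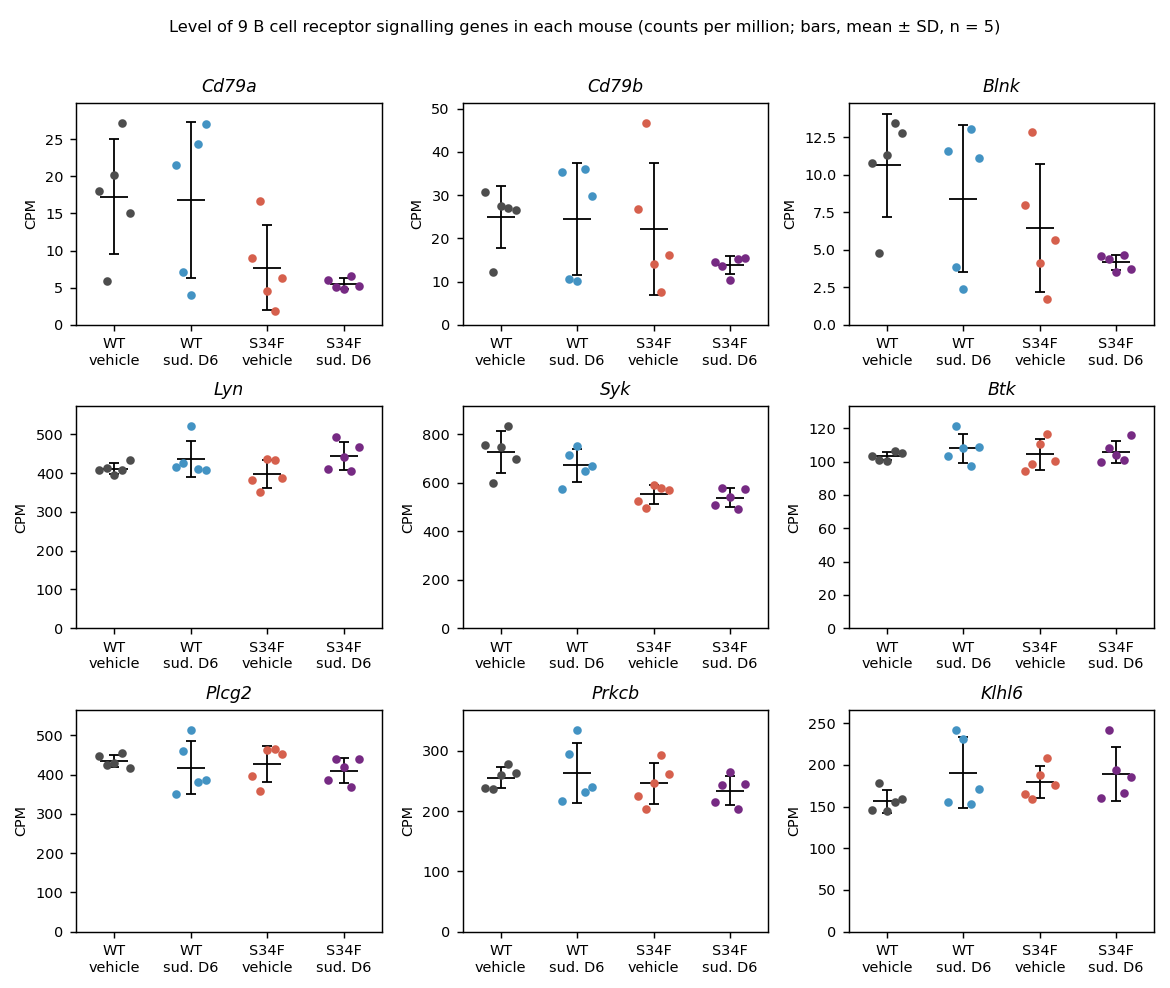
Level of the 9 genes in each of the 20 mice, in CPM on axes that start at 0, with the mean and SD of each group of 5 as bars. Cd79a, Cd79b and Blnk varied several-fold among mice of 1 group except in S34F-sudemycin mice, where Cd79a lay between 4.86 and 6.60 CPM, and Syk lay lower in both U2AF1(S34F) groups.

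Cd79a, a signalling chain of the receptor, was lower in U2AF1(S34F) than in U2AF1(WT) marrow when both were treated with sudemycin D6. In WT-vehicle mice 1 to 5 its level was 18.1, 5.92, 20.2, 27.2 and 15.1 CPM, and in S34F-vehicle mice 1, 3, 5, 7 and 11 it was 9.05, 16.7, 4.50, 1.87 and 6.37 CPM. In WT-sudemycin mice 6, 8, 9, 10 and 12 it was 21.6, 7.11, 3.97, 24.4 and 27.0 CPM, and in S34F-sudemycin mice 2, 6, 9, 10 and 12 it was 6.06, 5.07, 4.86, 6.60 and 5.20 CPM. The genotypes overlapped under each treatment: S34F-vehicle mouse 3 lay above WT-vehicle mice 2 and 5, and WT-sudemycin mouse 9 was the lowest of its treatment. Under sudemycin D6 the log2 fold change of U2AF1(S34F) against U2AF1(WT) was -1.60 (SE 0.44), a 3.03-fold lower level, with an FDR of 0.0188 by edgeR's quasi-likelihood test. Under vehicle it was -1.18 (SE 0.56), which did not pass an FDR<10% (FDR 0.143, edgeR), and it did pass when S34F-vehicle mouse 3 (log2 fold change -1.66, FDR 0.0432) or U2AF1(WT) mouse 2 (-1.39, FDR 0.0781) was left out. In bulk marrow, fewer B lineage cells and less RNA per B cell cannot be told apart.

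Cd79b, the partner chain of Cd79a, was lower in U2AF1(S34F) marrow under sudemycin D6 and varied widely under vehicle. Its level was 30.7, 12.3, 27.6, 27.0 and 26.6 CPM in WT-vehicle mice and 26.8, 46.7, 14.1, 7.71 and 16.1 CPM in S34F-vehicle mice, in the same order of mice as for Cd79a. Under sudemycin D6 it was 35.4, 10.7, 10.2, 36.1 and 29.7 CPM in U2AF1(WT) and 14.4, 13.7, 10.3, 15.3 and 15.5 CPM in U2AF1(S34F) mice. The highest and the lowest values of all 20 mice were both in the S34F-vehicle group, and each pair of groups overlapped. The log2 fold change between genotypes was -0.83 (SE 0.35, FDR 0.0953, edgeR) under sudemycin D6 and -0.18 (SE 0.45, FDR 0.795) under vehicle. The call under sudemycin D6 was close to the threshold: it was lost when any 1 of the 5 U2AF1(S34F) mice or U2AF1(WT) mouse 6, 10 or 12 was left out, with an FDR of up to 0.201.

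Blnk, the adaptor that links SYK to BTK and phospholipase C, followed the 2 receptor chains. Its level was 10.8, 4.79, 11.3, 13.5 and 12.8 CPM in WT-vehicle, 7.98, 12.9, 4.10, 1.72 and 5.67 CPM in S34F-vehicle, 11.6, 3.84, 2.40, 13.1 and 11.1 CPM in WT-sudemycin and 4.60, 4.38, 3.53, 4.64 and 3.75 CPM in S34F-sudemycin mice. The 5 mice with both mutation and drug lay close together and below all 5 WT-vehicle mice. Under sudemycin D6 the log2 fold change between genotypes was -1.01 (SE 0.39, FDR 0.0708, edgeR), and this call too was lost without any 1 of the U2AF1(S34F) mice or U2AF1(WT) mouse 6, 10 or 12 (FDR up to 0.161). Under vehicle it was -0.73 (SE 0.47, FDR 0.262), and without U2AF1(S34F) mouse 3 it was -1.12 with an FDR of 0.0730.

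Markers of B lineage cells moved with these 3 genes. The summed level of 15 B lineage markers, among them Pax5, Ebf1 and Vpreb1 and none of the 9 genes, had a lowest, median and highest value of 47.5, 141 and 161 CPM in WT-vehicle, 21.1, 150.2 and 209 CPM in WT-sudemycin, 16.3, 56.6 and 199 CPM in S34F-vehicle and 38.9, 45.4 and 58.8 CPM in S34F-sudemycin mice. All 15 were detected in each group except Vpreb2, which was at 0 in all S34F-sudemycin mice. Across the 20 mice, Pearson's r of log2 levels with this sum was 0.99 for Blnk, 0.96 for Cd79a and 0.96 for Cd79b, and 0.99, 0.94 and 0.96 without the 2 mice farthest from the median sum. These correlations share the libraries and their depth, and the part of B lineage content in the differences was not tested.

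Divided by the B lineage sum, the median level of Blnk was 0.0836 in WT-vehicle, 0.0773 in WT-sudemycin, 0.0815 in S34F-vehicle and 0.0909 in S34F-sudemycin mice. The ranges of this ratio overlapped between all of these groups. For Cd79a the medians were 0.128, 0.144, 0.0919 and 0.113 in the same order, and the ratio lay between 0.0839 and 0.115 in S34F-vehicle against 0.107 and 0.169 in WT-vehicle mice. For Cd79b they were 0.196, 0.236, 0.281 and 0.270. The Cd79b ratio lay between 0.168 and 0.259 in WT-vehicle and between 0.142 and 0.482 in WT-sudemycin mice. In S34F-vehicle mice it was 0.234 to 0.474 and in S34F-sudemycin mice 0.261 to 0.381. In relation to the B lineage markers, Blnk was thus level across the groups. The median for Cd79b was higher in both U2AF1(S34F) groups than in both U2AF1(WT) groups, but the WT-sudemycin range held those of both U2AF1(S34F) groups.

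**Figure D2:**
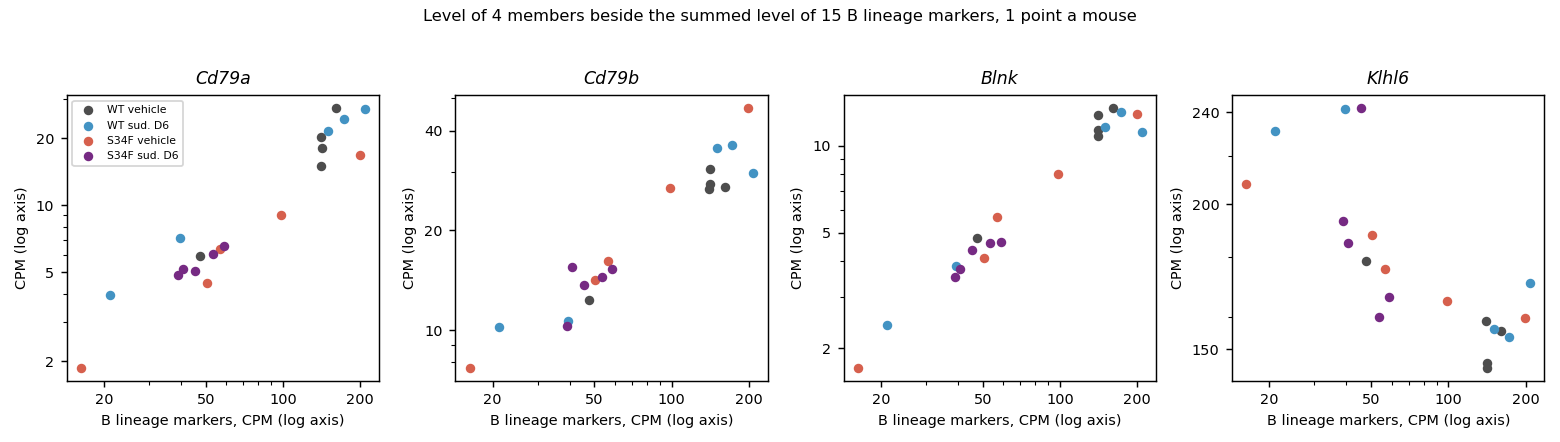
Level of Cd79a, Cd79b, Blnk and Klhl6 against the summed level of 15 B lineage markers in each of the 20 mice, in CPM on log axes, coloured by group. Cd79a, Cd79b and Blnk lie along rising lines (r of 0.96, 0.96 and 0.99) that mice of all groups share, and Klhl6 lies along a falling one (r of -0.78).

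Syk, the kinase recruited to the receptor chains, was lower in U2AF1(S34F) marrow under both treatments. Its level was 758, 601, 748, 833 and 697 CPM in WT-vehicle mice and 525, 495, 591, 580.2 and 570.4 CPM in S34F-vehicle mice. Under sudemycin D6 it was 576, 715, 754, 649 and 670 CPM in U2AF1(WT) and 508, 578, 540.3, 492 and 575 CPM in U2AF1(S34F) mice. Under vehicle every U2AF1(S34F) mouse lay below every U2AF1(WT) mouse, and under sudemycin D6 only U2AF1(WT) mouse 6 lay within the range of U2AF1(S34F). The log2 fold change was -0.41 (SE 0.10, FDR 0.00806, edgeR), a 1.33-fold lower level, under vehicle and -0.32 (SE 0.09, FDR 0.0193), 1.25-fold lower, under sudemycin D6. Both calls were kept when any 1 mouse was left out, with an FDR of at most 0.0248 and 0.0562. Over the 20 mice Syk, unlike the receptor chains and Blnk, showed little relation to the B lineage sum (r = 0.20). Within groups of 5, r was 0.90 in WT-vehicle, -0.77 in WT-sudemycin, -0.84 in S34F-vehicle and -0.79 in S34F-sudemycin mice. The neutrophil marker sum had higher medians in both U2AF1(S34F) groups (104464 and 105026 CPM) than in both U2AF1(WT) groups (71026 and 68374 CPM). Much of that sum was S100a8 and S100a9, with means of 10888 and 22270 CPM in WT-vehicle and 26163 and 38693 CPM in S34F-vehicle mice. Of the 12 neutrophil genes, 5 were called higher under vehicle and 3 under sudemycin D6, where 19.7% and 17.2% of all genes were. Their median log2 fold changes were 0.20 and 0.01. The part of neutrophil or other cell content in the level of Syk was not tested.

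Lyn, Btk, Plcg2 and Prkcb did not pass the test in any comparison. Lyn, the Src family kinase at the receptor, lay between 351 and 520.1 CPM over the 20 mice, with a mean of 411 ± 14.3 CPM in WT-vehicle and 444 ± 37 CPM in S34F-sudemycin mice (SD, n = 5). Btk, the Tec family kinase whose gene is on the X chromosome, had the narrowest range, 94.6 to 121 CPM, and group means of 103 to 108 CPM, with a log2 fold change between genotypes of 0.00 (SE 0.07) under vehicle and -0.03 (SE 0.07) under sudemycin D6. Plcg2, the phospholipase, ranged from 351 to 514 CPM and changed by -0.04 (SE 0.09) and -0.03 (SE 0.11) between genotypes under vehicle and sudemycin D6. Prkcb, the protein kinase C that carries the signal to NF-κB, ranged from 203 to 335 CPM and changed by -0.07 (SE 0.10) and -0.17 (SE 0.12). For each of these 4 genes the ranges of the groups overlapped in every comparison of groups.

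Klhl6 was the one gene of the 9 called higher in the mice with both mutation and drug. Its level was 146, 179, 145, 155 and 159 CPM in WT-vehicle, 156, 241, 231, 154 and 171 CPM in WT-sudemycin, 165, 159, 188, 208 and 176 CPM in S34F-vehicle and 159.7, 242, 193, 166 and 185 CPM in S34F-sudemycin mice. All groups overlapped. The log2 fold change from WT-vehicle to S34F-sudemycin mice was 0.27 (SE 0.10, FDR 0.0501, edgeR), a 1.21-fold higher level, and the call was lost without U2AF1(S34F) mouse 6 or U2AF1(WT) mouse 1 or 3 (FDR up to 0.143). Klhl6 fell as the B lineage sum rose (r = -0.78 over 20 mice), and within the groups r was -0.86, -0.92, -0.97 and -0.52 over 5 mice each, in the order of the groups above. A negative r over the 20 mice was not particular to Klhl6: it was -0.62 for Lyn, -0.60 for Plcg2, -0.51 for Btk and -0.50 for Prkcb. Within WT-vehicle mice r was positive for Plcg2 (0.45), Btk (0.57) and Prkcb (0.68).

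Counted by comparison, 1 of the 9 genes, Syk, passed an FDR<10% between genotypes under vehicle, where 39.5% of the 14817 genes tested did. Under sudemycin D6 4 of 9 passed (Cd79a, Cd79b, Blnk and Syk, all lower), against 36.8% of 14677 genes in either direction, 17.2% higher and 19.6% lower. From WT-vehicle to S34F-sudemycin mice, the comparison that carries mutation and drug together, 5 of 9 passed, against 50.2% of 14761 genes, 25.1% in each direction. The share of the 9 genes called was therefore below that of all genes under vehicle and close to it in the other comparisons, and under sudemycin D6 all 4 calls were in the lower direction.

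The B lineage genes were lower with mutation and drug together. The log2 fold change from WT-vehicle to S34F-sudemycin mice was -1.63 (SE 0.31, FDR 0.00226, edgeR) for Cd79a, -0.84 (SE 0.21, FDR 0.00730) for Cd79b and -1.34 (SE 0.22, FDR 0.000607) for Blnk. The value for Syk was -0.43 (SE 0.09, FDR 0.00232). Groups did not overlap for Blnk and Syk, and U2AF1(WT) mouse 2 put Cd79a and Cd79b into overlap. Leaving out any 1 mouse kept these 4 calls. The 14 tested B lineage markers all fell in this comparison, with a median log2 fold change of -1.48. Markers of some other cells fell too: 4 of 4 dendritic cell genes (median -1.33), 4 of 5 plasma cell genes (-0.76), 5 of 7 T and NK cell genes (-0.56) and 3 of 5 megakaryocyte genes (-0.78), with 1 gene of each of the last 2 lists called higher. Of 7 erythroid genes 2 fell (-0.17), as did 2 of 4 mast cell and basophil genes (-0.40). Of 12 neutrophil genes 5 were called higher and 0 lower (0.13), and of 8 monocyte and macrophage genes 2 higher and 3 lower (0.01). Over all genes 25.1% were called in each direction. The part of B lineage or other cell content was not tested. The comparison shares its WT-vehicle mice with the genotype comparison under vehicle and its S34F-sudemycin mice with that under sudemycin D6.

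Sudemycin D6 did not give a called change of any of the 9 genes within either genotype. In U2AF1(WT) marrow 0 of 9 passed where 3.07% of genes did, and in U2AF1(S34F) marrow 0 of 9 where 10.8% did. By edgeR and by DESeq2 the count was 0, and at an unadjusted p under 0.05 it was also 0. The nearest to the threshold were Klhl6 in U2AF1(WT), with a log2 fold change of 0.26 (SE 0.13, FDR 0.427), and Lyn in U2AF1(S34F), with 0.15 (SE 0.08, FDR 0.295). The largest estimates were those of the variable B lineage genes in U2AF1(S34F) marrow, -0.68 (SE 0.39, FDR 0.337) for Cd79b and -0.63 (SE 0.40, FDR 0.387) for Blnk, and Blnk passed without S34F-vehicle mouse 7, at -0.87 with an FDR of 0.0867. The edgeR test of whether the effect of the drug differed between the genotypes called 0 of the 9 genes, as did DESeq2, with 0 at an unadjusted p under 0.05, where it called 0.0130% of 15392 genes.

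**Figure D3:**
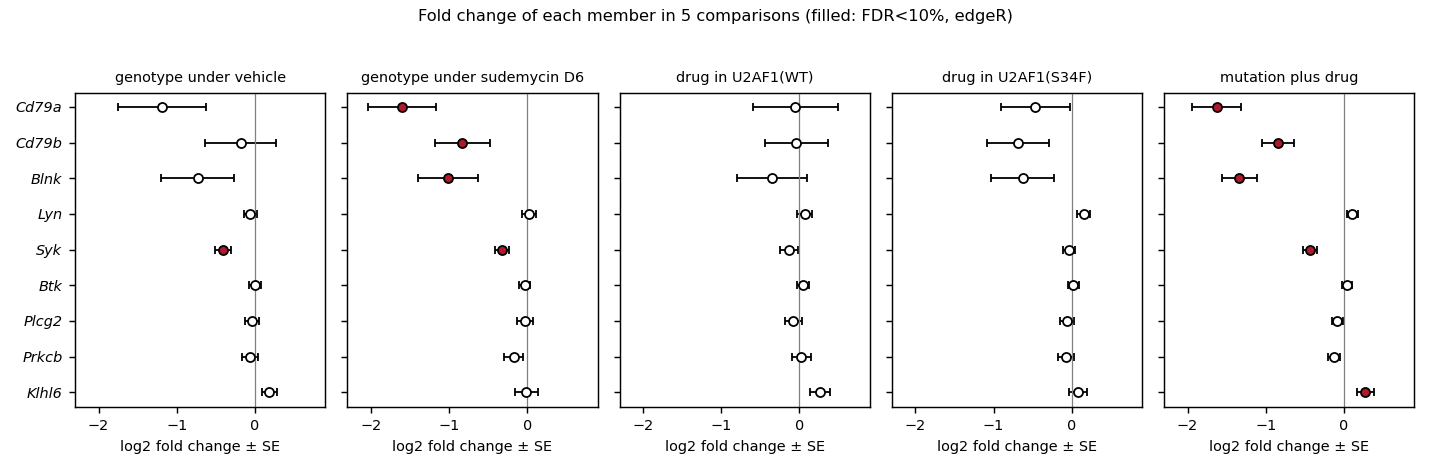
Log2 fold change of each of the 9 genes in the comparisons of groups, with the standard error from edgeR as bars and filled symbols for those that passed an FDR<10%. Cd79a (-1.63), Blnk (-1.34) and Cd79b (-0.84) lie farthest from 0 between WT-vehicle and S34F-sudemycin mice, and Lyn, Btk, Plcg2 and Prkcb lie near 0 throughout.

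Other genes of B cell receptor signalling were followed with a list of 102 genes, of which 100 were tested. Between genotypes under vehicle 3 rose and 40 fell, with a median log2 fold change of -0.21 against 0.00 over all genes. Under sudemycin D6 6 rose and 47 fell, with a median of -0.21 against -0.03, and with mutation and drug together 9 rose and 49 fell, with a median of -0.18 against 0.00. Over all genes, 19.7% were called higher and 19.8% lower under vehicle, 17.2% and 19.6% under sudemycin D6, and 25.1% each way with mutation and drug together. The calls of this list leaned to lower levels in U2AF1(S34F) marrow more than those of all genes did.

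The genes of the list that fell most between genotypes under vehicle were the immediate early transcription factors that receptor signalling induces. Egr1 was at 159.5 ± 60.2 CPM in U2AF1(WT) and 26.3 ± 7.64 CPM in U2AF1(S34F) mice (log2 fold change -2.61, SE 0.35, FDR 0.000843, edgeR), Fos at 978 ± 263 and 198 ± 70.0 CPM (-2.32, SE 0.27) and Jun at 555 ± 121 and 137 ± 46.8 CPM (-2.03, SE 0.24; SD, n = 5). The 3 that rose were Ighm, the IgM heavy chain (log2 fold change 0.68, SE 0.24), Dapp1, a phosphoinositide-binding adaptor (0.37, SE 0.08), and Cul3, the ubiquitin ligase scaffold that KLHL6 serves (0.32, SE 0.08). Under sudemycin D6 large falls were in Egr1 (-2.23, SE 0.21) and Nfatc2, a calcineurin-dependent transcription factor (-1.80, SE 0.13), while Cul3 (0.38, SE 0.08), Lat2 (0.37, SE 0.09) and Dapp1 (0.30, SE 0.09) were highest among those that rose. Many of these genes, Egr1, Fos and Jun among them, are expressed in most marrow cells, so their levels are not specific to B cells.

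Within a genotype, sudemycin D6 gave calls in both directions in the list. In U2AF1(WT) marrow 2 of the 100 rose and 4 fell, where 3.07% of all genes were called in either direction, and the median was 0.02 against 0.00 over all genes. Cd38, an ectoenzyme and B cell surface antigen, rose from 10.2 ± 4.08 to 28.6 ± 14.7 CPM (log2 fold change 1.46, SE 0.38, FDR 0.0999, edgeR). Egr1 fell by 2.27 (SE 0.29), Fos by 1.33 (SE 0.18), Jun by 0.60 (SE 0.15) and Ikbkb, an IκB kinase, by 0.28 (SE 0.08) on the log2 scale. In U2AF1(S34F) marrow 5 rose and 9 fell, where 10.8% of all genes were called, with Cd38 again rising, from 6.52 ± 1.25 to 17.7 ± 4.99 CPM (1.43, SE 0.19, FDR 0.00195). Gab2, Chuk and Pik3cd, an adaptor and kinases of the NF-κB and phosphoinositide branches, also rose, by 0.22 to 0.31 on the log2 scale. Egr1 (-1.87, SE 0.27), Cd72 (-0.85, SE 0.28) and Ighm (-0.83, SE 0.23) fell most, followed by Lck (-0.70), Prkca (-0.54), Nfkbie (-0.29), Tec (-0.26), Dapp1 (-0.22) and Ikbkg (-0.21).

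The Prkcb βII exon lost share to the βI exon both with the mutation and with the drug. Its share was taken as reads into the βII exon over these plus reads that join the upstream exon to the βI exon. The annotated βII transcript ends in the βII exon, so the junction out of that exon was left aside. That junction had 0 reads in 10 of the 20 mice and 34 to 79 reads in the other 10. The βII share was 91.8, 91.3, 95.7, 92.7 and 93.3% in WT-vehicle, 89.8, 85.7, 87.1, 86.8 and 84.4% in WT-sudemycin, 84.0, 86.5, 86.0, 84.9 and 80.5% in S34F-vehicle and 81.6, 80.7, 78.7, 80.4 and 81.3% in S34F-sudemycin mice. The WT-vehicle mice lay above all others, and the only pair of groups set against each other that overlapped were the 2 treatments of U2AF1(S34F). The mean share of U2AF1(S34F) minus that of U2AF1(WT) was -8.63 points under vehicle and -6.23 points under sudemycin D6. With the drug, differences of -6.21 points in U2AF1(WT) and -3.82 points in U2AF1(S34F) were seen, and with mutation and drug together -12.4 points.

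The junction into the βII exon carried 493 to 1052 reads a mouse and the βI junction 25 to 207, which gave each mouse's share a 95% Clopper-Pearson interval of at most 3.25 points to either side, for counting error only. As a cassette exon with both of its junctions averaged (inclusion level Ψ), the same exon differed by -13.2 and -8.39 points between genotypes and by -10.1 and -5.26 points with the drug, because the junction out of the exon holds few reads. The summed gene level of Prkcb passed no test, as given above. WT-sudemycin mice 9 and 12, with the lowest and highest B lineage sums of that group (21.1 and 209 CPM), had a βII share of 87.1 and 84.4%. The relation of the share to B lineage or other cell content was not tested.

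The second exon of Klhl6 was left out more often in the mice with both mutation and drug. Its Ψ was 97.6, 92.3, 96.7, 96.5 and 96.4% in WT-vehicle, 95.6, 94.6, 92.0, 94.1 and 92.9% in WT-sudemycin, 91.8, 92.3, 92.5, 94.6 and 92.1% in S34F-vehicle and 87.9, 91.9, 88.8, 92.9 and 88.5% in S34F-sudemycin mice. All pairs of groups set against each other overlapped, between WT-vehicle and S34F-sudemycin through U2AF1(WT) mouse 2, the lowest of its group at 92.3%. The mean Ψ of U2AF1(S34F) minus that of U2AF1(WT) was -3.24 points under vehicle and -3.84 points under sudemycin D6. The drug went with differences of -2.08 points in U2AF1(WT) and -2.67 points in U2AF1(S34F), and mutation and drug together with -5.91 points. The 95% interval of a mouse's Ψ reached at most 2.33 points to either side.

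The third exon of Btk was included at 96.1% or more in all mice. Its Ψ was 96.1, 100, 98.8, 98.2 and 97.5% in WT-vehicle, 99.3, 99.4, 99.4, 99.4 and 98.5% in S34F-vehicle and 98.9, 98.2, 99.02, 98.6 and 98.4% in S34F-sudemycin mice. WT-vehicle mouse 2 and WT-sudemycin mice 6, 8, 9 and 12 had 0 skipping reads, which allows a skipped share of up to 0.481%, and WT-sudemycin mouse 10 had 4 (Ψ 99.4%). Under sudemycin D6 the genotypes did not overlap and the mean Ψ of U2AF1(S34F) minus that of U2AF1(WT) was -1.27 points, whereas under vehicle it was 1.1 points. With the drug the mean Ψ differed by 1.77 points in U2AF1(WT) and by -0.59 points in U2AF1(S34F), and the treatments overlapped in both. The exon rests on 0 to 26 skipping reads a mouse. The other 3 Btk exons with skipping reads differed by less than 1 point in mean Ψ in each comparison: those of 65 bases (chrX:131082101-131082165) by at most 0.95 points, of 68 bases (chrX:131093226-131093293) by at most 0.88 points and of 171 bases (chrX:131108456-131108626) by at most 0.84 points. For the exon of 171 bases, the junction out of it that entered Ψ is the one that skips the third exon, with the same 0 to 26 reads. By the junction into it alone, its mean share was lowest in S34F-sudemycin mice, at 99.6%.

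**Figure D4:**
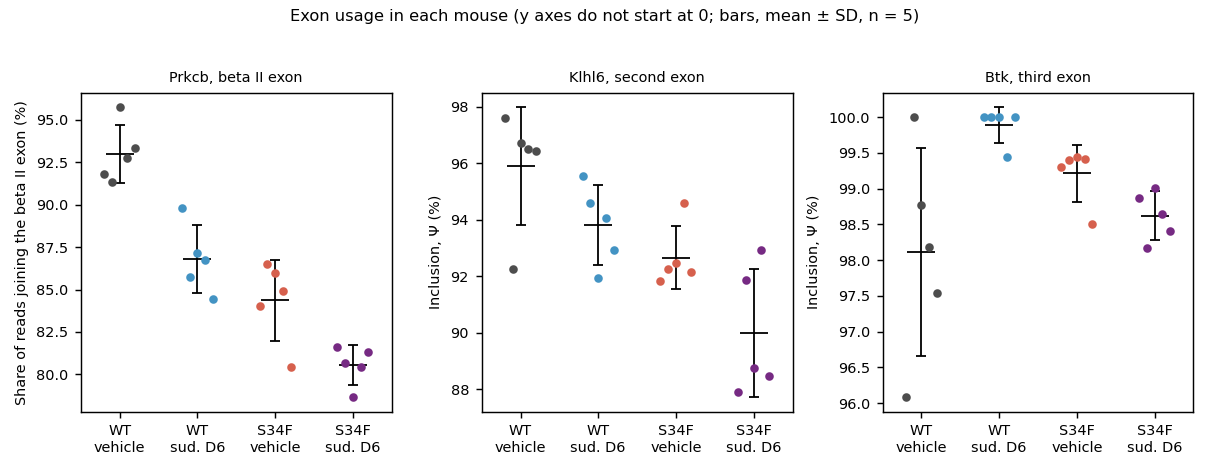
Share of the βII exon in Prkcb and inclusion of the second Klhl6 exon and the third Btk exon in each of the 20 mice, in percent on axes that do not start at 0, with the mean and SD of each group of 5 as bars. The Prkcb share lies between 91.3 and 95.7% in WT-vehicle and between 78.7 and 81.6% in S34F-sudemycin mice, Klhl6 shows overlapping groups, and Btk is at 96.1% or more.

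Splicing events of the 9 genes other than these exons were tested with the same thresholds as over the whole junction table, FDR<10% and |ΔΨ|>1%. Over all comparisons 41 such events had enough reads, 15 in Lyn, 10 in Syk, 8 in Plcg2, 7 in Prkcb and 1 in Cd79b, and none in Cd79a or Blnk. Under vehicle 2 of 31 were called between genotypes, where 6.01% of 20383 events were, and under sudemycin D6 0 of 31 against 4.96%, with 4 at an unadjusted p under 0.05. With the drug 0 of 33 were called in U2AF1(WT), against 2.27% and with 4 at an unadjusted p under 0.05, and 2 of 30 in U2AF1(S34F), against 2.16%. With mutation and drug together 2 of 31 were called, against 9.40%, and the test of a differing drug effect called 0 of 28, against 0.0205%, with 2 at an unadjusted p under 0.05. Where edgeR called 0, limma on Ψ called 0 too. At most 2 events were called in a comparison, and 4 different events, in Lyn, Syk and Prkcb, made up all the calls. All of these event calls were lost when edgeR estimated a dispersion between mice for each event in place of leaving that spread to the quasi-likelihood term.

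Lyn has a pair of alternative 5′ splice sites 63 bases apart, which give the longer LynA and the shorter LynB protein. The share of the longer form was 67.6, 67.8, 64.9, 60.4 and 66.8% in WT-vehicle, 65.1, 56.6, 64.0, 63.3 and 47.2% in WT-sudemycin, 60.7, 65.3, 63.1, 66.1 and 64.6% in S34F-vehicle and 58.5, 59.3, 60.3, 61.4 and 60.2% in S34F-sudemycin mice. The S34F-sudemycin mice lay closest together, and all groups overlapped. From WT-vehicle to S34F-sudemycin mice the longer form fell by 5.55 points (FDR 0.0105, edgeR). The drug alone gave -6.28 points in U2AF1(WT) (FDR 0.823), where mouse 12 was lowest, and -4.01 points in U2AF1(S34F) (FDR 0.215), and the genotypes differed by -1.54 (FDR 0.762) and 0.73 points (FDR 0.959), none of which was called.

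The next Lyn exon, of 46 bases (chr4:3669589-3669634), shares the junction of the longer form. Its 3′ splice site is set beside that of the exon after it, with the last 3 intron bases in capitals, and both have a T before the AG.
Lyn exon of 46 bases, chr4:3669569-3669591, plus strand: taacaaatactcttccaTAGgtt
Lyn, the next exon, chr4:3670324-3670346, plus strand: cttgtatcttttgttctTAGatc
Its Ψ was 98.6, 98.1, 97.3, 94.2 and 97.2% in WT-vehicle, 95.0, 97.8, 96.4, 96.7 and 93.8% in WT-sudemycin, 95.8, 96.4, 96.1, 93.7 and 95.7% in S34F-vehicle and 94.5, 95.6, 95.2, 95.3 and 93.5% in S34F-sudemycin mice. The groups overlapped, those of the genotypes under vehicle only through the low value of WT-vehicle mouse 4. The exon was called lower in U2AF1(S34F) under vehicle, at -1.54 points (FDR 0.0586, edgeR), and with mutation and drug together, at -2.24 points (FDR 0.00395). The call under vehicle was lost without U2AF1(S34F) mouse 7 or U2AF1(WT) mouse 1 or 2, with differences of -2.26 to -1.08 points and an FDR of up to 0.246 over the mice left out, while that with mutation and drug together held without any 1 mouse.

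**Figure D5:**
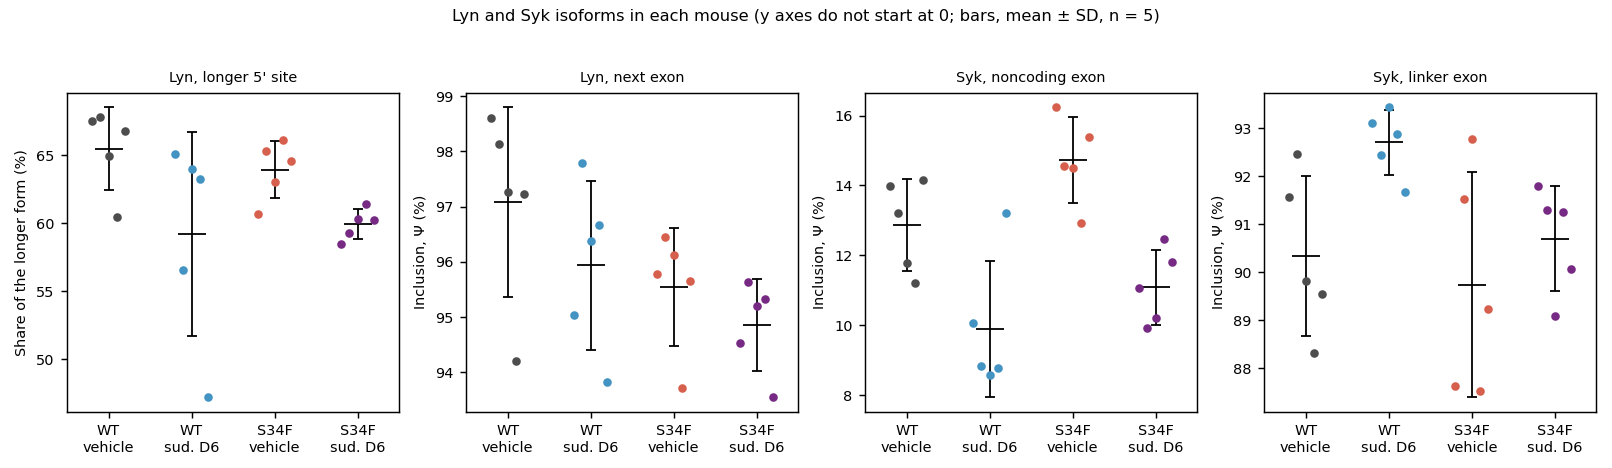
Share of the longer Lyn form and inclusion of the next Lyn exon, of the noncoding Syk exon and of the Syk linker exon in each of the 20 mice, in percent on axes that do not start at 0, with the mean and SD of each group of 5 as bars. The longer Lyn form was at 58.5 to 61.4% in S34F-sudemycin mice. With both of its junctions averaged, the noncoding Syk exon was lower with sudemycin D6 in U2AF1(S34F) mice, with no overlap. By the junction into this exon alone the treatments overlapped.

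Syk has an exon of 97 bases in its 5′ noncoding part (chr13:52692327-52692423) whose use fell with sudemycin D6 in U2AF1(S34F) marrow. Its Ψ was 13.99, 13.2, 11.8, 11.2 and 14.2% in WT-vehicle, 10.1, 8.83, 8.56, 8.77 and 13.2% in WT-sudemycin, 16.2, 14.6, 14.5, 12.9 and 15.4% in S34F-vehicle and 11.1, 9.91, 10.2, 12.5 and 11.8% in S34F-sudemycin mice. In U2AF1(S34F) marrow the treatments did not overlap in Ψ, and in U2AF1(WT) marrow sudemycin-treated mouse 12 lay among the vehicle-treated mice. This Ψ rests mostly on the junction out of the exon, with a mean of 251 reads in S34F-vehicle mice against 76.4 on the junction into it. By the junction into the exon alone, the share was 5.69 to 9.26% in S34F-vehicle and 3.89 to 6.05% in S34F-sudemycin mice, which overlapped. The drug gave -3.63 points in U2AF1(S34F) (FDR 0.0158, edgeR) and -2.99 points in U2AF1(WT) (FDR 0.113). The second was called without sudemycin-treated mouse 12 (-3.82 points, FDR 0.0243) or vehicle-treated mouse 4 (-3.40 points, FDR 0.0579), and the test of a difference in drug effect gave an FDR of 0.990.

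The Syk exon of 69 bases (chr13:52720077-52720145) encodes a stretch of the linker between the SH2 and kinase domains, and it distinguishes the long form of SYK from the short form, SykB. It is shown with its 3′ splice site and that of the next exon, with the last 3 intron bases in capitals, because the pair differs in the base before the AG as the Prkcb pair does.
Syk linker exon, chr13:52720057-52720079, plus strand: tctgccgttgtggtttcTAGact
Syk, the next exon, chr13:52727006-52727028, plus strand: ttctcatctgtgtgcttCAGcct
Syk linker exon, chr13:52720077-52720145, plus strand: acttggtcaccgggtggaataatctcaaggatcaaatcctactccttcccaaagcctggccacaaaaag
Its Ψ was 91.6, 92.5, 89.8, 88.3 and 89.5% in WT-vehicle, 93.1, 92.4, 93.4, 92.9 and 91.7% in WT-sudemycin, 87.6, 91.5, 92.8, 87.5 and 89.2% in S34F-vehicle and 91.8, 91.3, 89.1, 91.3 and 90.1% in S34F-sudemycin mice. All groups overlapped except for the near separation of the treatments in U2AF1(WT), where only vehicle-treated mouse 2 reached the sudemycin-treated mice. No comparison was called: the differences were -0.60 (FDR 0.80, edgeR) and -2.01 points (FDR 0.273) between genotypes under vehicle and sudemycin D6, and 2.37 (FDR 0.376) and 0.97 points (FDR 0.802) with the drug in U2AF1(WT) and U2AF1(S34F).

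In Prkcb, an exon of 135 bases (chr7:129661559-129661693) was included nearly always. Its Ψ was 98.2, 97.7, 99.7, 99.3 and 99.1% in WT-vehicle, 98.0, 98.1, 98.8, 98.1 and 99.4% in WT-sudemycin and 99.7, 98.7, 98.3, 98.9 and 98.2% in S34F-sudemycin mice. In S34F-vehicle mice 1, 5, 7 and 11 it was 99.8, 99.9, 99.9 and 99.3%, and mouse 3 had 0 skipping reads, which allows a skipped share of up to 0.218%. The groups overlapped in every comparison. It was called higher in U2AF1(S34F) under vehicle, by 1.02 points (FDR 0.0243, edgeR), and lower with the drug in U2AF1(S34F), at -1.05 points (FDR 0.0124). Both calls were just past the 1-point minimum. As the choice gave no coordinates for Prkcb, whether it also meant this exon is not known, and these tests may not be independent of the choice. The call under vehicle was lost without U2AF1(S34F) mouse 3, 5 or 7 or U2AF1(WT) mouse 1 or 2 (differences of 0.75 to 1.24 points), and the call with the drug without sudemycin-treated mouse 9 or 12 (-1.29 to -0.91 points).

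The genes whose levels ran most like each of the 9 over the 20 mice, among 9769 genes with a mean of at least 5 CPM, fell into separate groups. For Cd79a they included Cd22 (r = 0.98) and Pax5 (0.98), for Blnk Pax5 (0.98), Ebf1 (0.98) and Chst3 (0.98), and for Cd79b Cd2 (0.97), H2-Ob (0.97) and Snn (0.97). For Syk they were Dnmbp (0.97), Phf21a (0.97) and Foxo3 (0.97), and for Prkcb Tbc1d8 (0.96), Hipk1 (0.96) and 6430548M08Rik (0.96). For Plcg2 they were Fam129a (0.93), Was (0.93) and Myo1f (0.92), for Klhl6 Pkm2 (0.91), Tmem50a (0.90) and Wdr1 (0.89), for Btk Kif3b (0.89), Fbxo38 (0.83) and Nfu1 (0.82), and for Lyn Fbxo28 (0.88), Map4k4 (0.86) and Ptprj (0.85). None of the 9 genes was among the 3 most alike of another one. These values are Pearson's r of log2 CPM across mice that share groups and libraries.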

How the data were processed

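The authors deposited 2 tables for the whole series, counts per gene and counts per splice junction in each mouse, made from stranded, ribosomal RNA-depleted libraries aligned with TopHat2 2.0.8 to mm9. The gene counting program is not given in the sources used here. Counts were used as deposited. The 9 genes, their exons and all gene lists were chosen with earlier results of these data known.

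Genes passing edgeR's filterByExpr were tested with its quasi-likelihood test (edgeR 4.0.16, R 4.3.3, TMM scaling, robust, prior count 2), on the 10 mice of each comparison, with Benjamini-Hochberg adjustment over all genes tested and FDR<10%. Splicing events were built from junctions between splice sites annotated in build 37, with Ψ the inclusion reads per junction (2 junctions for a cassette exon) over these plus skipping reads. Events with a mean of at least 10 reads a mouse, and each isoform read in at least 50% of the mice, were tested in edgeR with a term for each mouse, adjusted within each event type over the whole table. Only the 9 genes, all Prkcb, Klhl6 and Btk exons of the choice, events called in a comparison, the Syk linker exon and the Lyn 5′ sites were named, with the 3 genes most alike by r. Of the pathway list, genes called with the drug, or the 3 largest changes each way among calls between genotypes, were named, and some of these are not reported here. Syk is listed as Sykb in the annotation. Intervals and upper limits for 0 reads (3 counts) cover counting error only. The scripts were tested on simulated data. Alternatives used DESeq2 1.42.0, limma 3.58.1, other filters and thresholds, 1 model of all 20 mice and leaving out each mouse.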

Additional observations from a re-analysis of the deposited data

Results flagged for a closer look

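Of 80 groups of 5 mice checked over the levels and isoforms named above, 9 held a mouse that stood apart by Dixon's criterion, which chance gives in about 1 of 20 groups. WT-sudemycin mouse 9 had a Lyn level of 520.1 CPM, where the others of its group had 409 to 427 CPM. WT-vehicle mouse 2 had a Cd79b level of 12.3 CPM against 26.6 to 30.7 CPM, and a Ψ of the second Klhl6 exon of 92.3% against 96.4 to 97.6%. The same mouse also had the lowest Cd79a and Blnk levels and the lowest B lineage sum of its group.

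S34F-vehicle mouse 7 had a Ψ of 94.6% for the second Klhl6 exon, against 91.8 to 92.5% in the others, and of 93.7% for the Lyn exon of 46 bases, against 95.7 to 96.4%. S34F-vehicle mouse 11 stood apart for the Prkcb exon of 135 bases at 99.3%, for the third Btk exon at 98.5% against 99.3 to 99.4%, and for the Btk exon of 171 bases at 99.6%. WT-sudemycin mouse 10 stood apart for the third Btk exon at 99.4%. The last 4 values rest on 2 to 13 skipping reads.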

How the results depend on the processing

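Alternatives were run for the called genes and events and, by a single junction, for the Prkcb βII exon, and none of these values changed sign. Of the called genes, Cd79a under sudemycin D6, Syk under vehicle and Cd79a, Blnk and Syk with mutation and drug together kept their calls under every alternative run. The number of the 9 genes called between genotypes under vehicle was 1, and 1 to 4 when single mice were left out. Under sudemycin D6 it was 4, and 2 at an FDR<5%, with no filter on low counts or in 1 model of all 20 mice, and 2 to 4 without single mice. With the drug in U2AF1(S34F) it was 0, and 0 to 1 without single mice. With mutation and drug together it was 5, and 3 in the model of all 20 mice, where Cd79b and Klhl6 were lost. The events called between genotypes under vehicle were 2, and 0 at |ΔΨ|>5%, with annotated junctions only, with a dispersion estimated by edgeR or by limma, and 0 to 2 without single mice. With the drug in U2AF1(WT) they were 0, and 2 when each isoform needed reads in only 1 mouse or in 1 model of all 20 mice, both in Syk, and 0 to 1 without single mice. With the drug in U2AF1(S34F) they were 2, and 0 at |ΔΨ|>5%, 1 with annotated junctions only, 0 with a dispersion estimated by edgeR, 1 by limma and 1 to 2 without single mice. With mutation and drug together they were 2, and 1 at |ΔΨ|>5%, 1 with annotated junctions only and 0 with an estimated dispersion or by limma. The causes were not tested. The reading of isoform coverage, annotated junctions only, the smaller set of mice without a block and the single Prkcb junction were alternatives chosen after seeing the data.

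Replicate numbers shared by the genotypes did not pair the mice: the correlation of deviations from the group means was 0.0662, 0.133 and -0.0479 for the 3 shared numbers under vehicle and 0.0731, 0.116, 0.211 and -0.111 for the 4 under sudemycin D6. With a block on the replicate number, on those mice alone, 2 genes (Syk and Cd79a) and 0 events were called under vehicle, and 3 genes and 0 events under sudemycin D6, where Syk was lost. The same mice without the block gave 1 gene and 0 events under vehicle, and 3 genes and 0 events under sudemycin D6.

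Low levels limit Blnk and Cd79a, and skipping reads limit the Btk exons and the Prkcb exon of 135 bases.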
